A study of Rattus norvegicus with 18 samples.

Results

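The rodent miR-344 family was examined in small RNA libraries of rat dorsal root ganglia (DRG), where the cell bodies of sensory neurons lie next to the spinal cord. Members were taken by name and by detection, as rows of the count table whose name starts with rno-miR-344 and whose counts exceeded 10 in 6 or more of the 18 libraries. Of the 7 miR-344 rows in the table, 1 met this rule, rno-miR-344b-1-3p, and 373 of all 753 miRNAs in the table met the same detection filter. The member was thus chosen by its counts in these libraries, and its being detected is a description and not a finding. It lay far inside the limit, with 44 to 106 counts per library and more than 10 in 18 of 18 libraries. The row nearest below the limit, miR-344g, had 3 counts in all, 1 in each of 3 libraries.

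All samples were C6-8 DRG of adult Lister Hooded rats, from which the ganglia of 1 side were combined per rat and not between rats. The naive rats had no surgery and no vector. The bPYX+GFP rats had both corticospinal tracts cut in the medullary pyramids (bPYX, bilateral pyramidotomy) and received, a day later, an adeno-associated viral vector of serotype AAV1 with a CMV promoter driving enhanced green fluorescent protein into forelimb flexor muscles of 1 side. The bPYX+NT3 rats had the same injury and the same vector type carrying human prepro-neurotrophin-3 (NT3), a growth factor for proprioceptive neurons. Ganglia of the injured rats were taken 10 weeks after injury. Each group held 6 rats with 1 library each. Injury, vector injection and time cannot be told apart in comparisons with naive rats, and whole ganglia hold neurons, glia, vessels and blood, so that fewer cells of a type and less RNA per cell cannot be told apart.

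MicroRNAs (miRNAs) are RNAs of about the length of a short primer that are cut from a hairpin precursor. A miRNA guides repression of messenger RNAs that pair with its seed, bases 2 to 8 counted from its 5′ end, so that miRNAs with the same seed are grouped as likely to share targets, and a change within the seed moves a miRNA to another group. The name ending 5p or 3p gives the arm of the hairpin a miRNA comes from. The miR-344 genes of the rat form a cluster of related genes, and the family is known from rodents.

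The mature sequences are shown first because the detected miRNA differs from miR-344b-3p by a single base, which lies in the seed. They are from RefSeq (assembly GRCr8), 5′ to 3′, with the seed in capitals.
miR-344b-1-3p: gAUAUAACcaaagcccgacugu
miR-344b-3p: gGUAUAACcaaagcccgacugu
miR-344b-5p: aGUCAGGCugcugguuauauuc
miR-344g: aGUCAGGCuccuggcaggaguc
miR-344a-5p: uCAGGCUCcuggcuagauu
miR-344i: cUCUAGCCagggcuugacugca
miR-410-3p: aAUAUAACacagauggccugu

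The detected miRNA, miR-344b-1-3p, is 22 bases long, and 21 of them are the same in miR-344b-3p. The single difference is A2G, with miR-344b-1-3p first and positions counted from its 5′ end. It lies in the seed, which is AUAUAAC in miR-344b-1-3p and GUAUAAC in miR-344b-3p. Among the RefSeq mature miRNAs, the only other one with the seed AUAUAAC was miR-410-3p, from the imprinted miRNA cluster between Dlk1 and Dio3. miR-344b-5p, miR-344g and miR-344a-5p come from the other arm. The seed GUCAGGC is shared by miR-344b-5p and miR-344g. The remaining row of the family is miR-344a-3p.

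Mature miR-344b-1-3p lies at chr1:124035684-124035705 on the minus strand of GRCr8, in the gene Mir344b-1. These positions are from a later assembly than Rnor_5.0, to which the reads were aligned. Mir344b-1 lies between Mir344b-2 and Mir344b-3, and the other 4 genes of the family, Mir344a-2, Mir344-1, Mir344g and Mir344i, follow on the same strand. No miRNA gene of another family lay within 200 kb of any of the 7. Mir344b-2 lies inside the long noncoding RNA gene LOC120099831, and Mir344b-1 lies in no other gene of that annotation. The hairpins of Mir344b-1 and Mir344b-2 are shown because they differ within their shared 71 bases at a single place, with the 5p and 3p arms in capitals.
Mir344b-1: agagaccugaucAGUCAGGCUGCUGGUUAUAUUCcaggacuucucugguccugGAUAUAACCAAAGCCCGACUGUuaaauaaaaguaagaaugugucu
Mir344b-2: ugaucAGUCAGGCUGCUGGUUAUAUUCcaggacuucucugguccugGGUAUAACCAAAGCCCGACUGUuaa

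The difference is A48G, with Mir344b-1 first and positions counted from the first base of the Mir344b-2 hairpin. It is the same base as A2G of the mature miRNA. The hairpins of Mir344b-2 and Mir344b-3 differ at 0 of 71 bases. The 5p arm is thus the same in 3 genes, the 3p arm of Mir344b-2 and Mir344b-3 in 2 genes, and the 3p arm of Mir344b-1 in 1 gene.

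The rows of the table were set beside these gene numbers. miR-344b-1-3p, held by 1 gene, had 1435 counts over the 18 libraries. miR-344b-3p (2 genes), miR-344b-5p (3 genes) and miR-344a-5p (2 genes) were listed at 0 in every library, and so were miR-344a-3p and miR-344i, of which the latter is held by 1 gene. Over the table, 638 miRNAs could be matched to a RefSeq hairpin. Of 602 miRNAs whose sequence is in 1 gene, 22.4% were listed at 0 in all libraries, against 27.6% of 29 with 2 genes and 71.4% of 7 with 3 or more, the rows of the family included. The detection filter was met by 50.8% of those with 1 gene, 55.2% with 2 genes and 0% with 3 or more. Reads of too low an alignment quality, which include those that fit several places, were 31.4 ± 1.88% of all reads (SD, n = 18). Their group means were 31.4% for naive, 31.1% for bPYX+GFP and 31.7% for bPYX+NT3 libraries. Their part in the zeros was not tested.

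A row listed at 0 need not have a level of 0. Among miRNAs of sensory neurons, miR-183-5p was listed at 0, while miR-182 and miR-96-5p from the same precursor cluster had 22968 ± 2505 and 4255 ± 349 CPM in naive rats (SD, n = 6). CPM are counts per M miRNA counts of a library, where M is 10 to the power of 6. By counting error alone, a count of 0 over the 84.6 M miRNA counts of all libraries allows up to 0.0355 CPM (3 counts). This limit covers only reads that the counting could assign.

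In naive ganglia miR-344b-1-3p was a low miRNA. CPM values were scaled between libraries by TMM, a method that assumes that most miRNAs do not differ. The 6 naive rats had 21.3, 18.6, 22.5, 20.9, 15.4 and 21.9 CPM in the order of their replicate numbers, on 95, 75, 103, 104, 79 and 106 counts. The mean was 20.1 ± 2.68 CPM (SD, n = 6). Naive replicate 5 was the lowest and the other 5 naive rats lay between 18.6 and 22.5 CPM. Over all 18 libraries the mean was 17.1 CPM, which ranked miR-344b-1-3p at 261 of the 373 tested miRNAs, whose median was 68 CPM. Counts given to miRNAs were 3.88 to 6.92 M per library.

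In bPYX+GFP rats miR-344b-1-3p was lower. The 6 rats had 17.4, 9.58, 14.9, 16, 13.6 and 12 CPM, on 80, 44, 94, 71, 67 and 52 counts, with a mean of 13.9 ± 2.83 CPM (SD, n = 6). Replicate 2 was the lowest of all 18 libraries, at 44 counts with an exact Poisson 95% interval from 32 to 59.1 counts. This interval and the others of this kind cover counting error only. In 4 of 6 bPYX+GFP rats the level lay below every naive rat, and 5 of 6 naive rats lay above every bPYX+GFP rat. The groups overlapped through naive replicate 5 and bPYX+GFP replicates 1 and 4, whereas 4.02% of all tested miRNAs had groups that did not overlap.

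In bPYX+NT3 rats the level lay between those of the other groups and varied least. The 6 rats had 16.6, 18, 16.7, 18.3, 17.6 and 15.7 CPM, on 72, 73, 79, 72, 92 and 77 counts. The mean was 17.2 ± 0.98 CPM (SD, n = 6). Of these rats, 3 of 6 lay above every bPYX+GFP rat, and all 6 lay above the lowest naive rat and below the naive mean. Groups did not overlap for 0% of tested miRNAs between the injured groups, and for 1.34% between bPYX+NT3 and naive rats. The SD was 5.71% of the mean, where counting error alone gives 11.4% at these counts. In naive rats the spread was 13.3% with 10.4% from counting, and in bPYX+GFP rats 20.3% with 12.4%.

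**Figure D1:**
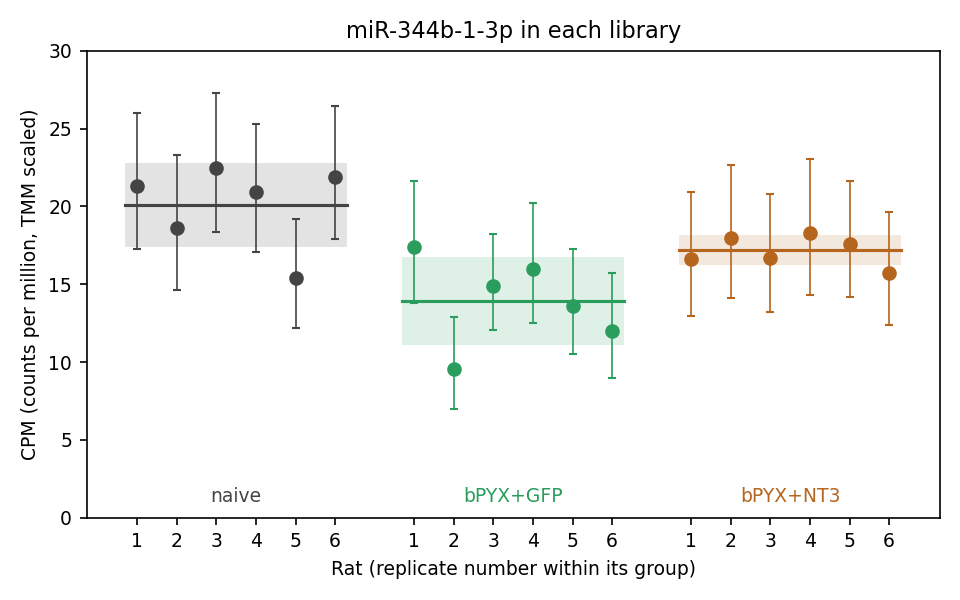
Level of miR-344b-1-3p (vertical axis, CPM) in each of the 18 libraries (horizontal axis, rats by group), with the exact Poisson 95% interval of each count, the group mean as a line and 1 SD as a band. The bPYX+GFP rats lie lowest, from 9.58 to 17.4 CPM, and the bPYX+NT3 rats lie close together, from 15.7 to 18.3 CPM.

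Injured rats given the control vector were first set against naive rats, to see how the 2 groups differed. In 6 of 6 bPYX+GFP rats miR-344b-1-3p lay below the naive mean. It was lower by 0.53 ± 0.14 on the log2 scale (SE; 95% interval -0.83 to -0.22), at 0.694 of the naive level (edgeR quasi-likelihood test, unadjusted p = 0.00209, Benjamini-Hochberg adjusted p = 0.0648 over 373 miRNAs). It thus passed the criterion of the study, an unadjusted p under 0.05, and did not pass at an adjusted p of 0.05. The criterion was met by 21.2% of all tested miRNAs in this comparison, 10.5% with a lower level, and an adjusted p under 0.05 by 2.41%. The small RNA results of the study list an LR column, as a likelihood ratio test gives, so its test differed from the one used here. With the likelihood ratio test 61 miRNAs met the criterion, against 79 here. These numbers were 30 and 32 for bPYX+NT3 against bPYX+GFP, and 42 and 51 for bPYX+NT3 against naive. By p, miR-344b-1-3p was number 12 of 373, and 17 miRNAs had a larger absolute log2 fold change. The median over all tested miRNAs was 0.00, and the median absolute value 0.14.

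The unadjusted call held in each of 19 alternative settings, with log2 fold changes from -0.60 to -0.44. The adjusted p ranged from 0.0285 to 0.126 over them. It was 0.0285 with the DESeq2 Wald test, 0.031 with edgeR when all 3 groups were fitted together and 0.0499 without naive replicate 2. In the other 16 settings it was above 0.05. Without bPYX+GFP replicate 2, the lowest library, the log2 fold change was -0.44 (edgeR adjusted p = 0.101). Without naive replicate 1 it was -0.51 (edgeR adjusted p = 0.126). The study left out 1 outlier, which its text names only by a rat number. The fits as reported here keep all 18 libraries of the count table.

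Among injured rats, the effect of neurotrophin-3 was addressed by setting bPYX+NT3 against bPYX+GFP. miR-344b-1-3p was higher by 0.32 ± 0.13 on the log2 scale (SE; 95% interval 0.03 to 0.60), a fold change of 1.24 (edgeR quasi-likelihood test, unadjusted p = 0.0326, adjusted p = 0.475), and 6 of 6 bPYX+NT3 rats lay above the bPYX+GFP mean. This passed at the unadjusted p only. The criterion was met by 8.58% of tested miRNAs here, 5.09% with a higher and 3.49% with a lower level, and an adjusted p under 0.05 by 0%. By p, miR-344b-1-3p was number 25 of 373.

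This call changed with single libraries. The unadjusted p ranged from 0.0184 to 0.103 and stayed under 0.05 in 5 of the 12 fits that each left out 1 library. It rose past 0.05 without bPYX+GFP replicate 2, 5 or 6, without bPYX+NT3 replicate 2, 3, 4 or 5, and, at 0.0506, without a detection filter. The log2 fold change was 0.24 to 0.38 over these fits, and lowest without bPYX+GFP replicate 2. The bPYX+GFP libraries enter this comparison and the one before it. The lower value in bPYX+GFP than in naive rats and the higher value with NT3 are thus not independent of each other.

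**Figure D2:**
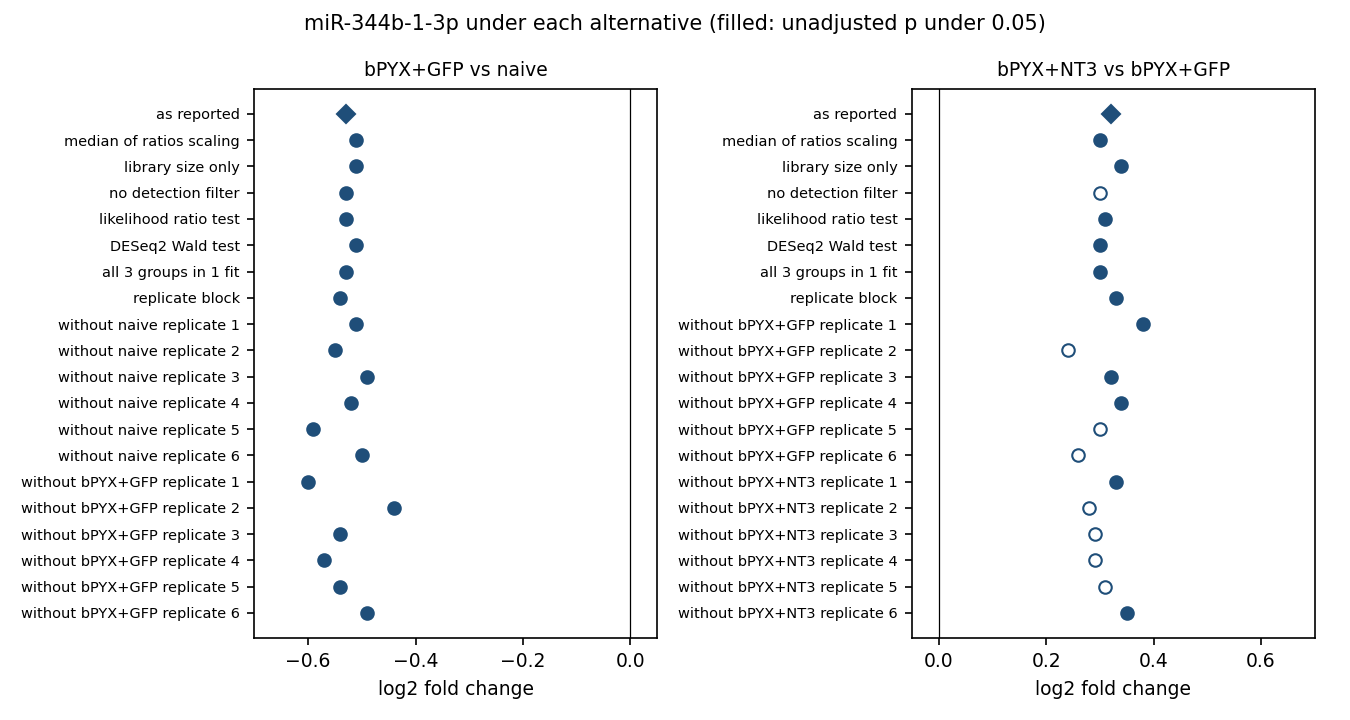
Log2 fold change of miR-344b-1-3p (horizontal axis) as reported (diamond) and under 19 alternatives (circles, vertical axis) in 2 comparisons, with filled symbols where the unadjusted p was under 0.05. Every symbol is filled for bPYX+GFP against naive, and 8 circles are open for bPYX+NT3 against bPYX+GFP.

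Rats treated with NT3 were also set against naive rats, to see what still set them apart. The difference in miR-344b-1-3p was -0.23 ± 0.11 on the log2 scale (SE; 95% interval -0.46 to 0.01; edgeR quasi-likelihood test, unadjusted p = 0.0555, adjusted p = 0.353), and 6 of 6 bPYX+NT3 rats lay below the naive mean. It did not pass the criterion, which 13.7% of tested miRNAs met, 7.24% with a higher and 6.43% with a lower level. A level as low as 0.46 below naive on the log2 scale lies within this interval. The unadjusted p was 0.017 without naive replicate 5, the lowest naive rat, and 0.0475 without naive replicate 2. In order of their means the groups were naive, bPYX+NT3 and bPYX+GFP. Between the neighbours naive and bPYX+NT3 the difference did not meet this criterion. Of the 6 naive rats, 5 lay above every bPYX+NT3 rat and 1 below all of them. The difference between bPYX+NT3 and bPYX+GFP met the criterion at the unadjusted p only.

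**Figure D3:**
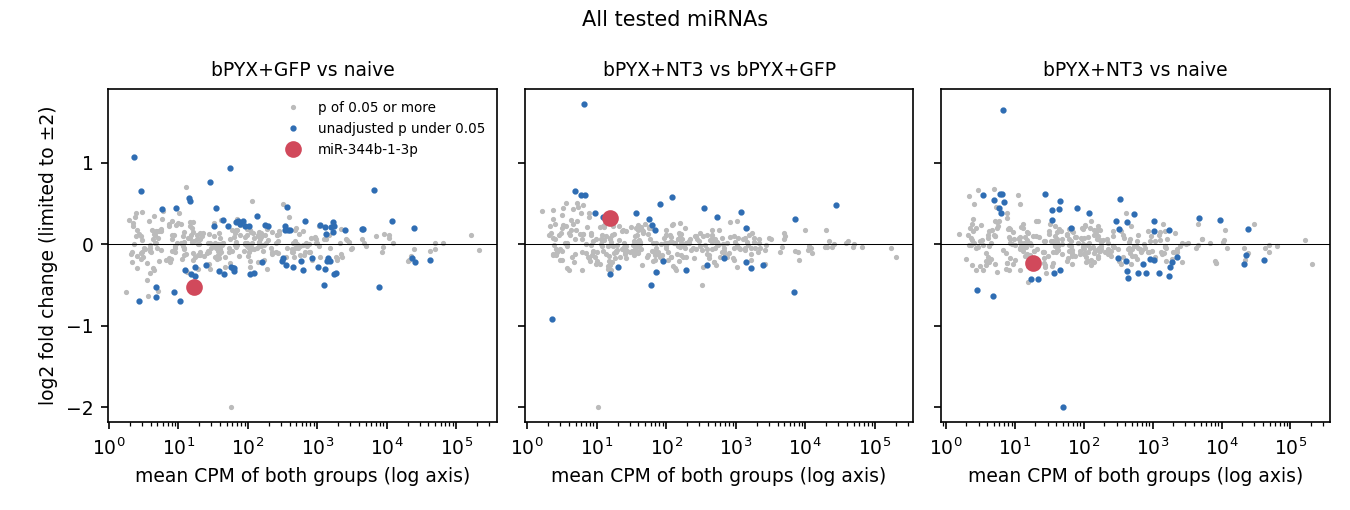
Mean level of the 2 groups (horizontal axis, CPM, log axis) and log2 fold change (vertical axis, limited to ±2) of all 373 tested miRNAs in the 3 comparisons, with miRNAs of an unadjusted p under 0.05 in blue, the others in grey and miR-344b-1-3p as a large red point. It lies among the lower miRNAs in level and near the lower edge of the fold changes for bPYX+GFP against naive, at -0.53.

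miR-410-3p, which shares the seed, was set beside it and had a lower level. Naive rats had 4.5 ± 1.03 CPM, bPYX+GFP rats 4.61 ± 1.24 CPM and bPYX+NT3 rats 6.16 ± 2.12 CPM (SD, n = 6 per group), on 11 to 48 counts per library. In bPYX+NT3 rats it was highest in replicates 3 and 5, at 8.48 and 9.19 CPM, while the other 4 bPYX+NT3 rats had 4.19 to 5.34 CPM. None of its comparisons met the criterion as fitted, and for bPYX+NT3 against naive 4 of 19 alternatives did, with unadjusted p-values of 0.0495 by library size only, 0.0442 without bPYX+NT3 replicate 1 or 6 and 0.0332 without replicate 2 (edgeR or DESeq2 adjusted p from 0.278 to 0.636 over all 19). For bPYX+GFP against naive its log2 fold change was 0.01 ± 0.22 (SE; 95% interval -0.46 to 0.48; edgeR adjusted p = 0.989; above the naive mean in 4 of 6 rats). For bPYX+NT3 it was 0.46 ± 0.26 against bPYX+GFP (95% interval -0.09 to 1.00; edgeR adjusted p = 0.617) and 0.46 ± 0.23 against naive (95% interval -0.03 to 0.95; edgeR adjusted p = 0.353), with 5 of 6 rats above the other group's mean in each. Without bPYX+NT3 replicate 5, the highest library, both values were 0.30.

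The difference between the seed partners was tested within libraries, as the log2 ratio of counts of miR-344b-1-3p to miR-410-3p (0.5 added to each). Naive rats had a ratio of 2.15 ± 0.34, bPYX+GFP rats of 1.60 ± 0.64 and bPYX+NT3 rats of 1.52 ± 0.46 (SD, n = 6 per group). This test was added after the levels had been seen. It was lower in bPYX+NT3 than in naive rats by 0.63, in 6 of 6 rats below the naive mean (two-sided exact permutation test over 924 splits, p = 0.0173, adjusted p = 0.0519 over 3 comparisons). The difference between bPYX+GFP and naive rats was -0.56, with 4 of 6 rats below the naive mean (exact permutation p = 0.0931, adjusted p = 0.14), and between the injured groups -0.07 (exact permutation p = 0.82, adjusted p = 0.82). None of the 3 passed after adjustment. Across the 18 libraries, the log2 CPM of the seed partners correlated with a Pearson coefficient of -0.05 and a Spearman coefficient of 0.02.

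**Figure D4:**
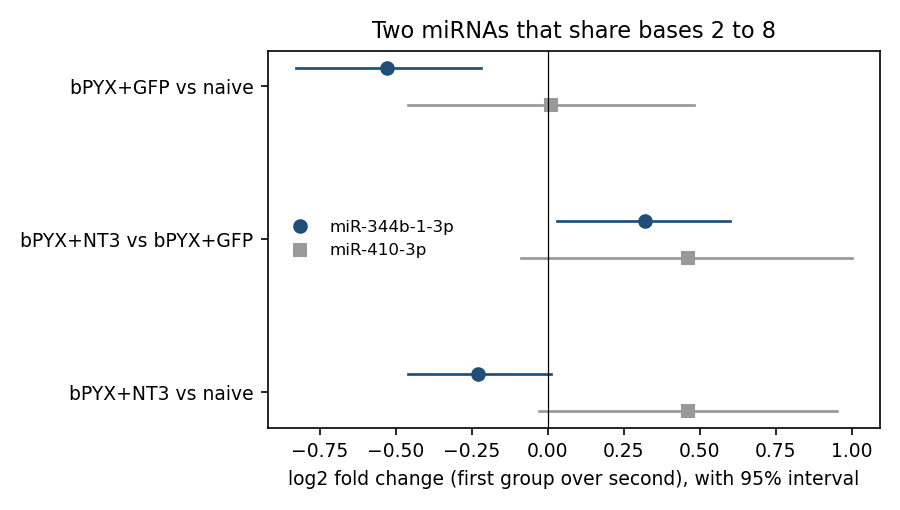
Log2 fold change with its 95% interval (horizontal axis) of miR-344b-1-3p (circles) and miR-410-3p (squares) in the 3 comparisons (vertical axis). For bPYX+GFP against naive, the interval of miR-344b-1-3p lies below 0 and that of miR-410-3p reaches from -0.46 to 0.48.

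The miRNAs most like miR-344b-1-3p across libraries were named by the Pearson correlation of log2 CPM over the 18 libraries, as a description. They were miR-363-5p at 0.69, miR-30d-3p at 0.64 and miR-1839-3p at 0.64. The median over 372 other miRNAs was -0.01, and 22 were above 0.5. Without bPYX+GFP replicates 2 and 6, whose miR-344b-1-3p level was farthest from the median, the values were 0.50, 0.50 and 0.66. As deviations from group means they were 0.55, 0.35 and 0.57, and as Spearman correlations 0.63, 0.61 and 0.64. All values share the library scaling, and miR-363-5p averaged 4.41 CPM. The group means of miR-30d-3p had the same order, at 19.3 CPM for naive, 15.9 CPM for bPYX+GFP and 18.2 CPM for bPYX+NT3. miR-363-5p was 5.83 CPM in naive against 3.69 and 3.72 CPM in the injured groups. For miR-1839-3p the order differed, at 8.3 CPM for naive, 7.13 CPM for bPYX+GFP and 7.05 CPM for bPYX+NT3.

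Other miRNAs known from neurons were described in the same comparisons. Of a list of 15 neuronal miRNAs, 9 were tested, and 0 of 9 met the criterion for bPYX+GFP against naive (median log2 fold change 0.01, range -0.18 to 0.15; adjusted p under 0.05 for 0 of 9), where 21.2% of all tested miRNAs did. With NT3 against GFP, where 8.58% of all tested miRNAs met the criterion, 1 of 9 was higher, miR-137-3p, a regulator of neuronal maturation (log2 difference 0.44 ± 0.18; edgeR adjusted p = 0.448), and the list median was -0.08 beside -0.00 over all tested miRNAs. Against naive, miR-137-3p (0.56 ± 0.18; edgeR adjusted p = 0.191) and miR-138-5p, enriched in brain (0.29 ± 0.12; edgeR adjusted p = 0.349), were higher in bPYX+NT3 rats at the unadjusted p. The list median was 0.06 there, with a range from -0.31 for miR-218a-5p to 0.56, beside -0.01 over all tested miRNAs, of which 13.7% met the criterion. Beside those shares, counts over 9 members say little about the list. miR-124-3p, abundant in brain neurons, had at most 7 counts in a library and was not tested. The 9 summed to 8598 to 11486 CPM for naive rats, 9048 to 10193 CPM for bPYX+GFP rats and 7347 to 10994 CPM for bPYX+NT3 rats.

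Markers of cell types were compared in the same groups. Among those of sensory neurons, miR-182 and miR-96-5p were tested. They summed to 23643 to 31011 CPM for naive rats, 28968 to 33103 CPM for bPYX+GFP rats and 25920 to 32958 CPM for bPYX+NT3 rats. miR-182 passed at the unadjusted p as higher in both injured groups than in naive rats, by 0.20 ± 0.08 on the log2 scale for bPYX+GFP (edgeR adjusted p = 0.173) and 0.19 ± 0.09 for bPYX+NT3 (edgeR adjusted p = 0.349). miR-96-5p did not pass, with 0.07 ± 0.08 for bPYX+GFP (edgeR adjusted p = 0.71) and -0.04 ± 0.10 for bPYX+NT3 (edgeR adjusted p = 0.886). The 7 miRNAs of blood cells, led by miR-150-5p of lymphocytes and miR-451-5p of red cells, summed to 923 to 2745 CPM for naive, 1458 to 3008 CPM for bPYX+GFP and 1199 to 2171 CPM for bPYX+NT3 rats. None of the 7 met the criterion in any comparison, which with 21.2%, 8.58% and 13.7% of all tested miRNAs says little about 7 members. For bPYX+GFP against naive, their log2 fold changes were all above 0, from 0.03 to 0.70 with a median of 0.26 beside 0.00 over all tested miRNAs. The median was -0.11 for bPYX+NT3 against bPYX+GFP and 0.18 for bPYX+NT3 against naive. The endothelial miR-126a-3p ranged from 21029 to 29104 CPM for naive, 20900 to 26675 CPM for bPYX+GFP and 19523 to 28529 CPM for bPYX+NT3 rats, with miR-126a-5p listed at 0. Of 3 fibroblast miRNAs, miR-199a-5p was lower in bPYX+GFP than in naive rats, with a log2 difference of -0.21 ± 0.10 (edgeR adjusted p = 0.232). For bPYX+NT3 against naive it was -0.20 ± 0.09 (edgeR unadjusted p = 0.0501, adjusted p = 0.349), and miR-199a-3p and miR-214-3p had -0.01 and -0.04 for bPYX+GFP against naive. The 3 together ranged over 1627 to 2460 CPM for naive, 1387 to 1870 CPM for bPYX+GFP and 1544 to 1851 CPM for bPYX+NT3 rats. Of 4 muscle miRNAs, miR-133b-3p and miR-206-3p were tested, summing to 99 to 179 CPM for naive, 71.5 to 335 CPM for bPYX+GFP and 84.5 to 266 CPM for bPYX+NT3 rats. Neither met the criterion, and miR-1-3p and miR-133a-3p were listed at 0. The near copy miR-1b, which was not on the list and was looked up after its values were seen, had 8630 ± 609 CPM in naive, 9454 ± 830 CPM in bPYX+GFP and 10615 ± 1819 CPM in bPYX+NT3 rats (SD, n = 6 per group). It was higher in bPYX+NT3 than in naive rats at the unadjusted p only, by 0.30 ± 0.10 on the log2 scale (edgeR unadjusted p = 0.0121, adjusted p = 0.247). Of 3 miRNAs of myelinating glia none was tested, since miR-338-3p and miR-219a-2-3p were listed at 0 and miR-219a-5p had at most 7 counts. The part of cell composition in the level of miR-344b-1-3p was not tested.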

How the data were processed

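Small RNA was sequenced from the DRG of 18 rats. The authors prepared NEBNext libraries, trimmed adapters, aligned reads with Bowtie2 to Rnor_5.0 and counted them with HTSeq. Per the labels, bcl2fastq 1.8.4 was used. The deposited values are raw read counts per mature miRNA. The 5 HTSeq totals (on average 31.4% too low alignment quality, 27.2% not aligned, 3.26% ambiguous and 3.2% outside miRNAs) entered neither the library sizes nor the tests. Reads had no stated molecular identifiers, and strand settings are not given in the sources used here.

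Each comparison was fitted on its 12 libraries with edgeR 4.0.16 in R 4.3.3 (TMM, quasi-likelihood F test), over the 373 miRNAs with more than 10 counts in at least 6 libraries, with Benjamini-Hochberg adjustment. The SE was taken from the F statistic. CPM used TMM factors of all 18 libraries. The fit was tested on simulated data. Within groups, no libraries agreed within sampling noise (chi-square per degree of freedom at least 39.6).

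The members and lists were chosen with earlier results of these data known; the ratio to miR-410-3p was added after seeing the data. Named miRNAs were the family, miRNAs sharing its seed, miRNA genes within 200 kb, and the 3 most correlated miRNAs. Alternatives were median-of-ratios scaling, library size only, no detection filter, a stricter filter (more than 100 counts), the likelihood ratio test, DESeq2 1.42.0, all groups in 1 fit, the replicate block and leaving out each library.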

Additional observations from a re-analysis of the deposited data

Results flagged for a closer look

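The check covered miR-344b-1-3p, miR-410-3p and the 3 most correlated miRNAs, and not the neuronal miRNAs or markers of cell types. In 15 groups of 6 rats, over these 5 miRNAs, 1 rat stood well apart at the top of its group in 2 cases. By chance about 1 in 20 groups would show this. For miR-363-5p, naive replicate 3 had 8.52 CPM and the next highest naive level was 5.59 CPM. For miR-30d-3p, bPYX+GFP replicate 4 had 21.6 CPM and the next highest level in that group was 16.5 CPM, and without this library its correlation with miR-344b-1-3p was 0.71. No group of miR-344b-1-3p or miR-410-3p held such a rat.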

How the results depend on the processing

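The log2 fold change of miR-344b-1-3p kept its sign in each of 19 alternatives in all 3 comparisons. Its number of calls at an unadjusted p under 0.05 was 1 throughout for bPYX+GFP against naive. For bPYX+NT3 against bPYX+GFP it was 1 as reported, 0 without a detection filter, and 0 to 1 when a library was left out. For bPYX+NT3 against naive it was 0 as reported and 0 to 1 when a library was left out. A filter of more than 100 counts removes miR-344b-1-3p, so it gave no value. The log2 fold change of miR-410-3p for bPYX+GFP against naive changed sign in 6 fits and ranged from -0.09 to 0.15 when a library was left out. With the replicate block the log2 fold changes of miR-344b-1-3p were -0.54, 0.33 and -0.22, and no call changed. The labels do not say that a replicate number marks a shared litter or day. Correlations of the deviations of same-numbered rats ranged from -0.38 to 0.37. Their median was 0.01 for naive and bPYX+GFP and 0.03 for naive and bPYX+NT3. Between the injured groups it was 0.10, with 3 of 6 pairs above 0.1, beside -0.01 for rats of other numbers. Over the 373 tested miRNAs the number of calls for bPYX+NT3 against bPYX+GFP was 32, and 54 without bPYX+NT3 replicate 4. For bPYX+NT3 against naive it was 51, and 32 without bPYX+NT3 replicate 3. The cause of these shifts was not tested. Without a detection filter, 54 were called for bPYX+NT3 against bPYX+GFP, but there the 572 miRNAs with any count were tested. Averaged over the libraries of a group, counting error alone is 10.4 to 12.4% of a level, and it is larger in single libraries with fewer counts, where 44 counts have an exact Poisson 95% interval from 32 to 59.1.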

Other observations

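In the 6 bPYX+NT3 rats the observed spread of miR-344b-1-3p was below the value expected from counting error, a difference that was not tested. Of the 72 tested miRNAs with a mean level within 2-fold of miR-344b-1-3p, itself included, none had a smaller relative spread in this group, and the median was 18%. Of these 72, the spread was below counting error for 12 in bPYX+NT3, 8 in naive and 14 in bPYX+GFP rats. Over all 373 tested miRNAs the spread in bPYX+NT3 rats was below counting error for 34 (9.12%), against 30 in naive and 39 in bPYX+GFP rats. This value was looked at after the levels had been seen.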
